A study of Homo sapiens with 14 samples.

Results

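The genes described here are 38 genes of homologous recombination, the Fanconi anaemia pathway and ATR signalling, taken by gene symbol from the deposited count tables of CHP-134, a human neuroblastoma cell line with amplified MYCN. The tables list 17810 gene identifiers for the OmoMYC experiment and 19143 for the parental experiment, and all 38 genes are in each. In the first experiment, CHP-134 cells carrying a lentiviral Tet-On construct for EGFP (3 libraries) or for OmoMYC (3 libraries) received 1 µg/ml doxycycline for 3 days in tetracycline-approved serum. OmoMYC is a dominant-negative fragment of MYC that competes for the partners and DNA sites of MYC proteins, and EGFP is a fluorescent protein that serves as the control for induction. The constructs sit in separate G418-selected lines that all received doxycycline, so the line and the induced protein cannot be told apart. In the second experiment, parental CHP-134 cells were given 500 nM dTAG47 (4 libraries) or the solvent DMSO (4 libraries) for 18 h in normal serum. dTAG47 degrades proteins that carry an FKBP12(F36V) tag, and the parental cells have no such tag, so this comparison asks what the compound does by itself.

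Homologous recombination repairs broken DNA by copying an intact sister chromatid. The MRN complex finds the break, nucleases cut back its ends, BRCA2 and its partners prepare the exposed strand for pairing, and translocases and helicases carry the strand exchange to its end. The Fanconi anaemia proteins unhook crosslinks between DNA strands and hand the resulting break to recombination, while the kinases ATR and ATM signal stalled forks and breaks to CHEK1 and CHEK2. Many of these genes are transcribed most in S phase, and MYCN-amplified neuroblastoma cells are known for replication stress, which makes the ATR and CHEK1 branch of interest in this tumour.

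Total counts were 28060817 to 38358128 a library in the OmoMYC experiment and 40861430 to 53451641 in the parental experiment. In bulk RNA, fewer cells in a given state and less RNA per cell cannot be told apart. In counts per 1000000 counts of the library (CPM), the 10 noradrenergic neuroblast markers summed to 1564 to 1852 in EGFP and 1752 to 1840 in OmoMYC, where 5 of them were called higher and 1 lower (median log2 fold change 0.22). Leukocyte markers summed to 1.03 to 1.36 CPM in EGFP and 0.415 to 0.546 in OmoMYC, and mesenchymal markers to 129 to 143 and 113 to 127. The part of these 3 marker lists in the results was not tested. MYC counts, which include any reads from the OmoMYC transgene, rose from 0.610 ± 0.068 CPM in EGFP to 522 ± 7.85 in OmoMYC (SD, n = 3 each), as the labels require. MYCN fell by 0.28 ± 0.07 on the log2 scale (SE, edgeR adjusted p = 0.0103).

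The comparison of OmoMYC with EGFP asks which genes differ between these lines after 3 days of doxycycline. The set fell broadly: of 37 members that could be tested, 30 were lower with OmoMYC (81.1%), 2 were higher, and 5 did not pass the test. These calls are from the quasi-likelihood test of edgeR at a Benjamini-Hochberg false discovery rate of 0.05 over 13803 genes, of which 25.7% were called lower and 27.3% higher. The median log2 fold change of the 37 members was -0.51, a level of 0.703 times that of EGFP, against 0.01 over all genes tested. BRCA1, FANCD2, ATR and CHEK1 were among the genes that fell, the Fanconi core gene FANCE and the break mediator TP53BP1 rose, and ATM, ATRIP, FANCC, RAD52 and XRCC3 were not called. The levels of 31 members were lower in every OmoMYC library than in any EGFP library, a separation found for 30.3% of all genes, and those of 2 were higher in every one, against 32.0% of all genes. The falls were moderate: 14 members were called lower and fell by more than 1.5-fold, as did 7.62% of all genes. When the test was made against a fold change of 1.5 instead of 0, 3 members (FANCB, RAD54B and CHEK2) passed it as lower and none as higher, against 1.73% and 6.85% of all genes.

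**Figure D1:**
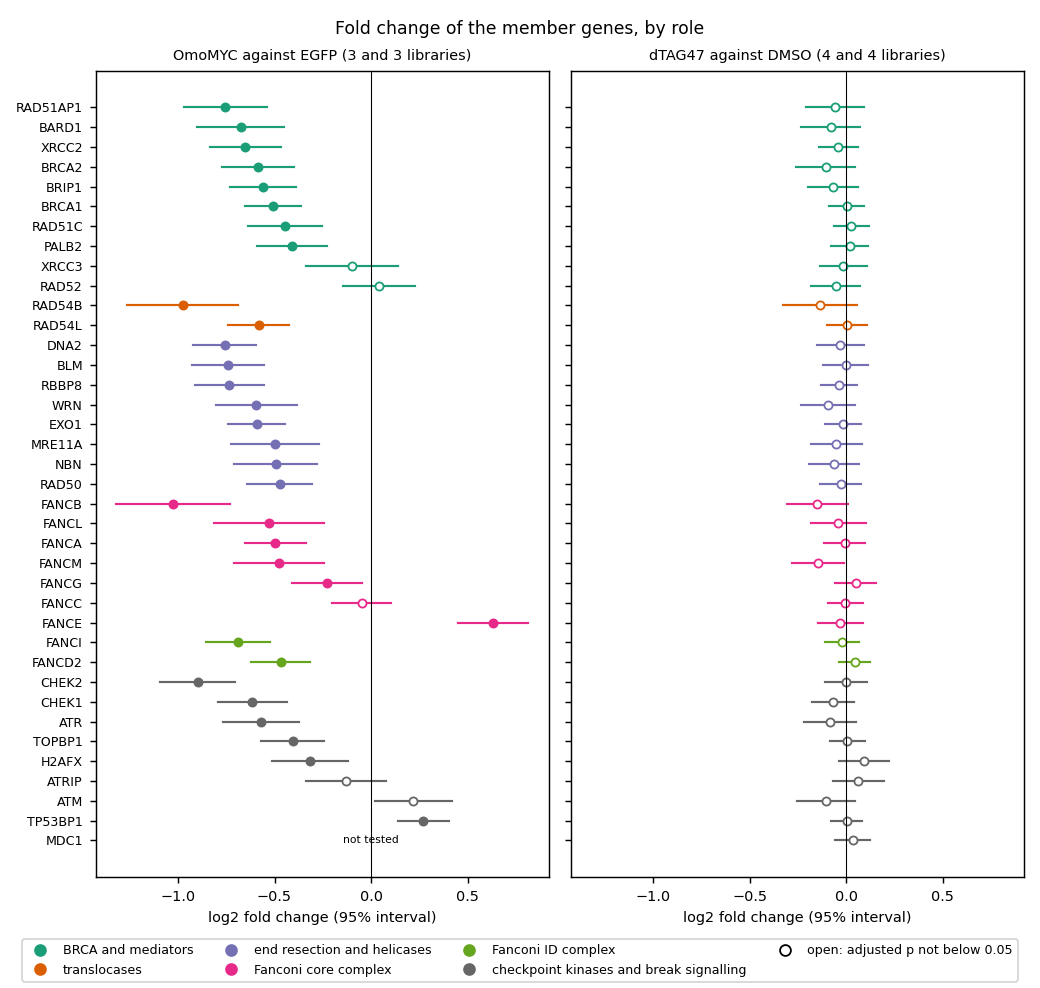
Log2 fold change (x axis) of each member gene (y axis), with its 95% interval, for OmoMYC against EGFP on the left and dTAG47 against DMSO on the right. Colours give the role of the gene and filled points an adjusted p below 0.05. On the left 30 of 37 members are filled and below 0, FANCE and TP53BP1 are filled and above 0, and MDC1 was not tested. On the right every point is open and lies between -0.15 and 0.09.

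Taken as a group, the 37 members held 0.373%, 0.362% and 0.349% of all counts in the EGFP libraries and 0.279%, 0.283% and 0.275% in the OmoMYC libraries. The OmoMYC libraries all lay below the EGFP libraries, and the mean share fell by 22.9%. The two-sided exact permutation test over libraries gave p = 0.1, the smallest value that 3 against 3 allows. In the parental cells the same 37 genes held 0.376%, 0.368%, 0.351% and 0.355% with DMSO and 0.355%, 0.371%, 0.349% and 0.343% with dTAG47. Those groups overlapped (exact permutation p = 0.343).

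Promoter sequence is shown for 7 members, chosen to set genes that fell beside genes that did not. RefSeq start-site windows on GRCh38.p14 (250 bases before to 50 bases after the start) were matched for 33 of the 38 members. DNA2, FANCI, NBN, RAD54B and WRN had no entry. The windows were searched on both strands for the core of E2F sites, spelled TTGGCGC or TTCCCGC or TTCGCGC or TTGCCGC, for the MYC E-box CACGTG and for the CCAAT box, whose reverse complement can share letters with TTGGCGC. The printed stretches are the 100 bases just before the start, on the strand of the gene, each found exactly once in GRCh37, with E2F core and CCAAT matches on either strand in capitals. In TOPBP1 the capitals are overlapping E2F matches on opposite strands. Each fallen gene shown carries an E2F core, which only 13 of 25 fallen members with a window have, so the stretches do not represent the set. Of several windows for a gene, the one with the E2F match nearest upstream of the start was taken, or the first where there was none.
RAD51AP1: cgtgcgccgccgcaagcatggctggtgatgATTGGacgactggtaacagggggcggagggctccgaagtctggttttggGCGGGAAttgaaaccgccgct
BLM: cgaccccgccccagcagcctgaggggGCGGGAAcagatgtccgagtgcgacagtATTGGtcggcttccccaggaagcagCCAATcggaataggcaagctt
RAD54L: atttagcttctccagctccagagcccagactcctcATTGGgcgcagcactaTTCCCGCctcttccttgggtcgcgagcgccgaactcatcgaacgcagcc
TOPBP1: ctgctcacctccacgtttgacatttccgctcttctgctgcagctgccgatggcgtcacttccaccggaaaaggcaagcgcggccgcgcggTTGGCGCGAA
BRCA1: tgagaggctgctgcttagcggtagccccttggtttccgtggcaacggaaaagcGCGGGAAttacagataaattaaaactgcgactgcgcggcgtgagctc
FANCC: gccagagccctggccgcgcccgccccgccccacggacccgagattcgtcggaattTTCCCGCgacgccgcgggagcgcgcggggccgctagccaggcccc
TP53BP1: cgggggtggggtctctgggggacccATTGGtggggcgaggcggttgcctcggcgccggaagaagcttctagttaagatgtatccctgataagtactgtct

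These stretches lie at chr12:4647956-4648055 (plus strand) for RAD51AP1, chr15:91260477-91260576 (plus) for BLM, chr1:46713260-46713359 (plus) for RAD54L and chr3:133380786-133380885 (minus) for TOPBP1. Those of BRCA1, FANCC and TP53BP1 lie on the minus strand at chr17:41277382-41277481, chr9:98079992-98080091 and chr15:43802839-43802938. An E2F core was found in 18 of the 33 members with a window (54.5%), in 24.5% of the genes tested for OmoMYC that had a window and in 15.3% of all RefSeq genes in the table. It was present in 13 of 25 members that fell, in 4 of 7 that were tested and did not fall and in MDC1. These shares are of few genes and were not tested against each other. FANCC, which did not pass the test, carries it as BLM and RAD51AP1 do. With GC content, transcript length and gene span corrected, FANCC was called lower (log2 fold change -0.28). The E-box was found in 3 members (BRCA2, FANCC and RAD50), which is 9.09% of those with a window against 12.6% of the genes tested and 8.775% of all in the table. The CCAAT box was found in 17 members (51.5%) against 42.9% of the genes tested and 39.7% of all in the table. These matches are letters in a window and were not tested as sites.

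Of the 10 genes of the BRCA complexes and recombination mediators, 8 fell, 2 were not called, and the median log2 fold change was -0.53. BRCA1, the ubiquitin ligase that promotes resection and recruits BRCA2 through PALB2, stood at 239, 243 and 223 CPM in EGFP and 169, 168 and 159 in OmoMYC. The groups did not overlap, and BRCA1 fell by 0.51 ± 0.07 on the log2 scale (SE, adjusted p = 0.000144). BARD1, its obligate ligase partner, was at 37.7, 34.5 and 29.1 CPM in EGFP and 21.9, 21.4 and 20.1 in OmoMYC. It fell by 0.68 ± 0.10 (adjusted p = 0.000374). BRCA2, a mediator of strand exchange, was at 118, 102 and 98.2 CPM in EGFP and 68.2, 74.1 and 69.9 in OmoMYC, again without overlap. Its fall was 0.59 ± 0.08 in log2 units, an adjusted p of 0.000266.

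Among the other mediators, RAD51AP1, which helps to capture the duplex partner, was at 47.6, 44.3 and 37.9 CPM in EGFP and 25.9, 26.8 and 24.1 in OmoMYC. It fell by 0.76 ± 0.10 (adjusted p = 0.000135). XRCC2, a mediator of strand exchange, was at 131, 160.4 and 149 CPM in EGFP and 93.9, 97.0 and 89.6 in OmoMYC, with its lowest EGFP library still above all 3 OmoMYC libraries. It fell by 0.65 ± 0.08 (adjusted p = 0.000126). The bridge protein PALB2, the helicase BRIP1 and the mediator RAD51C fell by 0.41, 0.56 and 0.45 on the log2 scale. XRCC3, which pairs with RAD51C, was not called, at -0.10 ± 0.11 in log2 units (adjusted p = 0.453). With GC content, transcript length and gene span corrected, XRCC3 was called lower, at -0.42. On this annotation 76.7% of its exonic bases overlap exons of KLC1 on the opposite strand. The strand setting of the counting is not given in the sources used here. RAD52, which anneals single strands and can stand in for BRCA2, was at 0.04 ± 0.08 (adjusted p = 0.691).

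The translocases of the RAD54 family, which move along the duplex, both fell. RAD54B was at 13.3, 10.7 and 9.88 CPM in EGFP and 5.56, 6.10 and 5.53 in OmoMYC, with all 3 OmoMYC libraries below the lowest EGFP library. It fell by 0.98 ± 0.13 on the log2 scale (adjusted p = 0.000159). It had the lowest mean CPM of the members tested, with 163 to 420 counts a library. On this annotation 66.01% of its exonic bases overlap FSBP on the same strand, so reads of these genes could be shared. RAD54L, the main translocase, fell by 0.58 ± 0.07 (adjusted p = 9.67e-05), and 19.9% of its exonic bases overlap LRRC41 on the opposite strand. The ratio of RAD54B to RAD54L counts was 0.219 ± 0.034 in EGFP and 0.166 ± 0.011 in OmoMYC (SD, n = 3 each, exact permutation p = 0.1), and it was lower in each OmoMYC library than in any EGFP library. That ratio is not corrected for GC content, transcript length or gene span. With these corrected, the log2 fold changes were -0.60 for RAD54B and -0.69 for RAD54L, so RAD54B no longer fell more.

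All 8 genes of end resection and the recombination helicases fell, with log2 fold changes from -0.76 to -0.47 and a median of -0.59. DNA2, a nuclease and helicase of long-range resection, was at 133, 126 and 118 CPM in EGFP and 74.7, 77.2 and 70.9 in OmoMYC. It fell by 0.76 ± 0.07 (adjusted p = 2.24e-05). RBBP8, known as CtIP, which starts resection with the MRN nuclease, was at 123, 116 and 103 CPM in EGFP and 69.2, 70.9 and 65.5 in OmoMYC. It fell by 0.73 ± 0.08 (adjusted p = 5.44e-05). BLM, the helicase mutated in Bloom syndrome that works with DNA2 and dissolves joint molecules, was at 85.6, 78.4 and 71.8 CPM in EGFP and 48.7, 48.1 and 44.4 in OmoMYC. It fell by 0.74 ± 0.08 (adjusted p = 6.09e-05). None of these groups overlapped. The exonuclease EXO1, which resects in parallel with DNA2, and WRN, the Werner syndrome helicase, each fell by 0.59 on the log2 scale. The smallest falls in this role were those of the MRN complex, 0.50 for the nuclease MRE11A, 0.47 for RAD50 and 0.49 for NBN. For RAD50, 76.9% of the exonic bases are also part of a readthrough gene on the same strand.

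**Figure D2:**
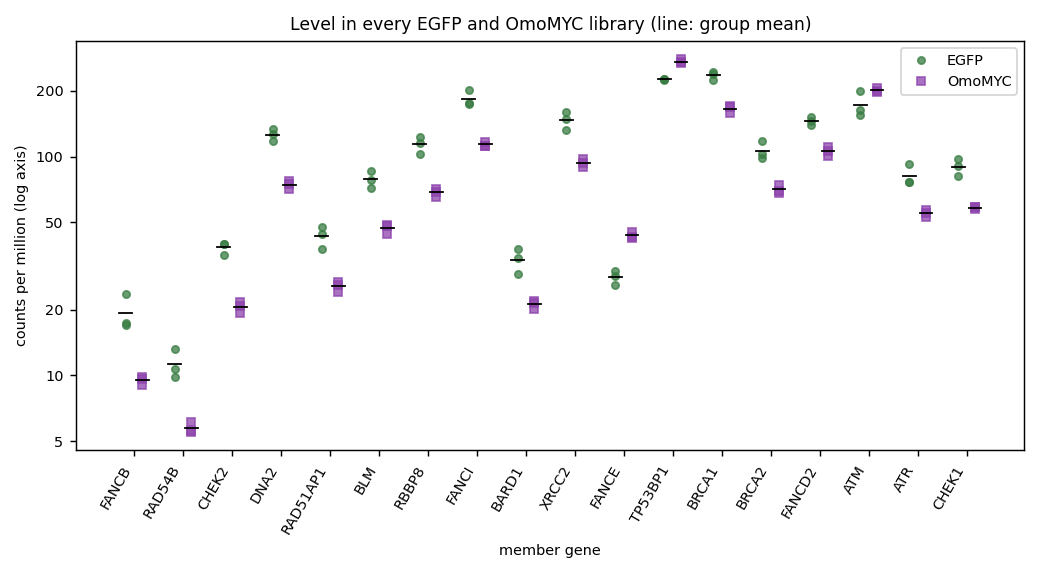
CPM (y axis, log scale) in every EGFP library (circles) and OmoMYC library (squares) for 18 members (x axis), with a line at each group mean. The first 10 are the called members with the largest fold changes, from FANCB to XRCC2, and in each the circles lie above the squares. In FANCE and TP53BP1 the squares lie above the circles, and in ATM the groups overlap.

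The Fanconi core complex is the ubiquitin ligase that acts on FANCD2 and FANCI. Of the 7 core complex genes in the set, 5 fell, FANCE rose and FANCC was not called. With GC content, transcript length and gene span corrected, FANCC was called lower (-0.28) and FANCL was not called (-0.09). FANCB, a subunit of the catalytic module, was at 23.7, 17.3 and 17.1 CPM in EGFP and 9.0, 9.89 and 9.60 in OmoMYC. EGFP replicate 1 stood highest, yet the lowest EGFP library lay well above the OmoMYC libraries, and FANCB fell by 1.03 ± 0.13 on the log2 scale (adjusted p = 0.000139), the largest change of the set. FANCE, which links the core to FANCD2, was at 25.9, 30.1 and 28.4 CPM in EGFP and 45.3, 42.6 and 43.0 in OmoMYC. It rose by 0.63 ± 0.08 (adjusted p = 0.000145), the largest rise in the set before that correction, with every OmoMYC library above every EGFP library.

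In the same fit the other core genes moved less, but with gene features corrected FANCA fell more than FANCB (-0.75 against -0.68). FANCL, the catalytic ubiquitin ligase subunit, fell by 0.53 ± 0.13 (adjusted p = 0.00578), FANCA, the scaffold most often mutated in Fanconi anaemia, by 0.50 ± 0.07 (adjusted p = 0.000286), and FANCM, the translocase that anchors the complex to DNA, by 0.48 ± 0.10 (adjusted p = 0.00341). FANCG, the partner of FANCA, fell by 0.23 ± 0.08 (adjusted p = 0.0371), the smallest fall that passed the test. Its call was lost, at an adjusted p of 0.0625 to 0.108, in 4 of the 6 fits without 1 library (EGFP replicate 2 or any OmoMYC replicate). The calls of the other 31 members held in all 6 such fits. FANCC, a partner of FANCE, was at -0.05 ± 0.07 (adjusted p = 0.581), its 95% interval being -0.20 to 0.11. Within libraries, FANCE counts were 0.327 ± 0.020 times those of FANCA in EGFP and 0.716 ± 0.047 times in OmoMYC (SD, n = 3 each, exact permutation p = 0.1), so 2 subunits of the complex changed by 2.19-fold relative to each other. The pairs for such ratios were chosen after their values were seen. On this annotation 19.6% of the exonic bases of FANCA overlap ZNF276 on the opposite strand.

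FANCD2 and FANCI form the clamp that the core complex ubiquitinates, and both fell. FANCD2 was at 152, 146 and 140.0 CPM in EGFP and 106, 110.1 and 100.4 in OmoMYC. It fell by 0.47 ± 0.07 (adjusted p = 0.00032). FANCI was at 201, 176 and 173 CPM in EGFP and 117, 112 and 112 in OmoMYC. Its log2 fold change was -0.69 ± 0.07 (adjusted p = 4.54e-05), and neither gene had overlapping groups.

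Of the 8 checkpoint and break-signalling genes tested, 5 fell, TP53BP1 rose, and ATM and ATRIP were not called. ATR, the kinase of stalled forks, was at 92.8, 76.7 and 76.2 CPM in EGFP and 55.4, 57.2 and 52.9 in OmoMYC. It fell by 0.57 ± 0.09 (adjusted p = 0.000481). CHEK1, its effector kinase, was at 97.2, 90.0 and 81.1 CPM in EGFP and 58.8, 57.6 and 58.9 in OmoMYC. It fell by 0.61 ± 0.08 (adjusted p = 0.000147). CHEK2, the effector kinase of ATM, was at 39.8, 40.04 and 35.3 CPM in EGFP and 19.2, 21.7 and 20.8 in OmoMYC. It fell by 0.90 ± 0.09 (adjusted p = 2.22e-05), and the CHEK2 to CHEK1 count ratio went from 0.430 ± 0.018 to 0.352 ± 0.025 (SD, n = 3 each, exact permutation p = 0.1). TOPBP1, the activator of ATR, fell by 0.41 ± 0.07 (adjusted p = 0.0012). ATRIP, the partner that brings ATR to single-stranded DNA, was at -0.13 ± 0.09 (adjusted p = 0.269). With GC content, transcript length and gene span corrected, ATRIP was called lower, at -0.45. On this annotation 26.7% of its exonic bases overlap TREX1 on the same strand.

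ATM, the kinase of double-strand breaks, stood apart from ATR. It was at 199, 163 and 156 CPM in EGFP and 196, 207 and 198 in OmoMYC, where EGFP replicate 1 was as high as the OmoMYC libraries and the others lay below them. ATM changed by 0.22 ± 0.09 in log2 units (95% interval 0.02 to 0.42) and missed the threshold (adjusted p = 0.0634). With libraries scaled by their size alone it was called higher, at 0.23 ± 0.09 (adjusted p = 0.0472). Without EGFP replicate 1 it was called higher, at 0.32 ± 0.06 (adjusted p = 0.000153). The ratio of ATM to ATR counts was 2.14, 2.12 and 2.04 in the EGFP libraries and 3.54, 3.61 and 3.75 in the OmoMYC libraries. The groups did not overlap, at 1.73-fold (exact permutation p = 0.1, the smallest value this test allows). This ratio does not rest on how libraries are scaled, but the pair was chosen after its values were seen.

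TP53BP1, which protects break ends from resection and so opposes BRCA1, was at 225, 223 and 226 CPM in EGFP and 267, 269 and 278 in OmoMYC. It rose by 0.27 ± 0.06 (adjusted p = 0.00316) with little spread in either group. The ratio of TP53BP1 to BRCA1 counts was 0.958 ± 0.051 in EGFP and 1.64 ± 0.09 in OmoMYC (SD, n = 3 each, exact permutation p = 0.1), a 1.72-fold change. On this annotation 28.8% of the exonic bases of TP53BP1 overlap TUBGCP4 on the opposite strand. H2AFX, the histone variant phosphorylated around breaks, fell by 0.32 ± 0.09 (adjusted p = 0.0125). MDC1, the adaptor that reads that phosphorylation, could not be tested in this experiment. It was listed under 3 identifiers with 4 to 15, 0 to 1 and 0 to 1 counts a library, while the parental table lists it once with 5684 to 7581 counts. Of 40 genes within 1 Mb of it that are in both tables, 22 are under several identifiers in the OmoMYC table and 0 in the parental table, so its level was not assessed there.

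**Figure D3:**
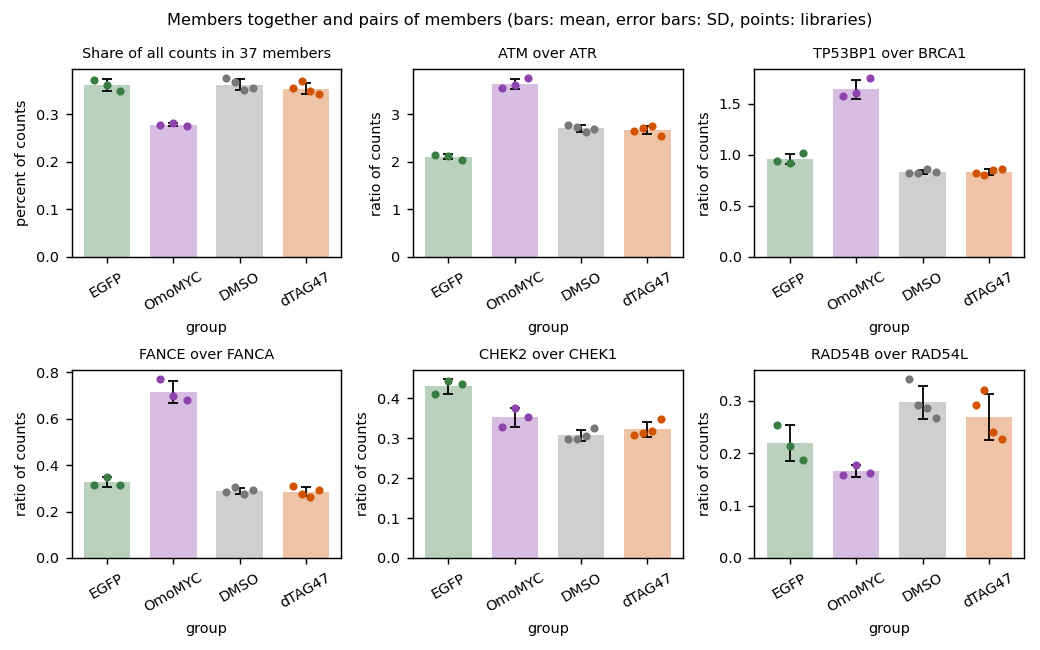
Share of all counts held by 37 members (first panel, percent) and count ratios of 5 pairs of members (y axes start at 0) in the EGFP, OmoMYC, DMSO and dTAG47 groups. Bars are means, error bars are SD and points are libraries. The share falls from 0.362% to 0.279% between EGFP and OmoMYC, the first 3 ratios are higher and the other two lower in OmoMYC, and the DMSO and dTAG47 libraries overlap in every panel.

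Per kilobase of transcript, the members spanned a wide range of levels. In EGFP, H2AFX was highest at 245 CPM per kb, followed by EXO1 at 41.0, FANCI at 38.7, RBBP8 at 34.8 and BRCA1 at 33.2, while FANCM at 5.496, RAD54B at 3.67 and ATRIP at 2.69 were lowest. With OmoMYC, H2AFX stood at 197 CPM per kb, EXO1 at 27.2, TP53BP1 at 26.2, FANCI at 24.0, TOPBP1 and NBN at 23.4 each and BRCA1 at 23.3. TP53BP1 thus came to lie among the highest members after a level of 21.7 in EGFP. These levels depend on the transcript chosen for the length, here the canonical one of the annotation.

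The size of a fall went with the base composition of the transcript. Members had transcripts of 35.8% to 66.8% GC with a median of 41.6%, and 29 of the 37 lay below the median of all genes (48.7%). Across the 37 members the Spearman correlation of log2 fold change with GC content was 0.59, and across 13445 genes with a known transcript 0.49. These are descriptions over genes that share their libraries. When trends on GC content, transcript length and gene span were removed from each library, the correlation in the members was -0.18, the median log2 fold change -0.34, and 31 members were called lower and 3 higher, against 27.5% and 32.3% of all genes. Of the 30 genes called lower before, 28 were called lower again. FANCL was then at -0.09 (adjusted p = 0.182) and XRCC2 at -0.37 (adjusted p = 0.0758), so their calls were lost. XRCC3 at -0.42, ATRIP at -0.45 and FANCC at -0.28 were called lower and ATM at 0.42 was called higher. The corrected values of RAD54L (-0.69), FANCA (-0.75), H2AFX (-0.63) and FANCG (-0.46), all with GC-rich transcripts, were larger in size than the uncorrected ones. Those of most AT-rich members were smaller. The falls of RAD51AP1, BRCA2, BARD1 and FANCB were then 0.26, 0.28, 0.35 and 0.68 on the log2 scale. The smallest corrected falls that passed the test were those of NBN (0.13), RAD51C (0.14), FANCM (0.16), PALB2 and TOPBP1 (0.19 each) and MRE11A (0.20). FANCE (0.39) and TP53BP1 (0.30) were called higher under both.

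**Figure D4:**
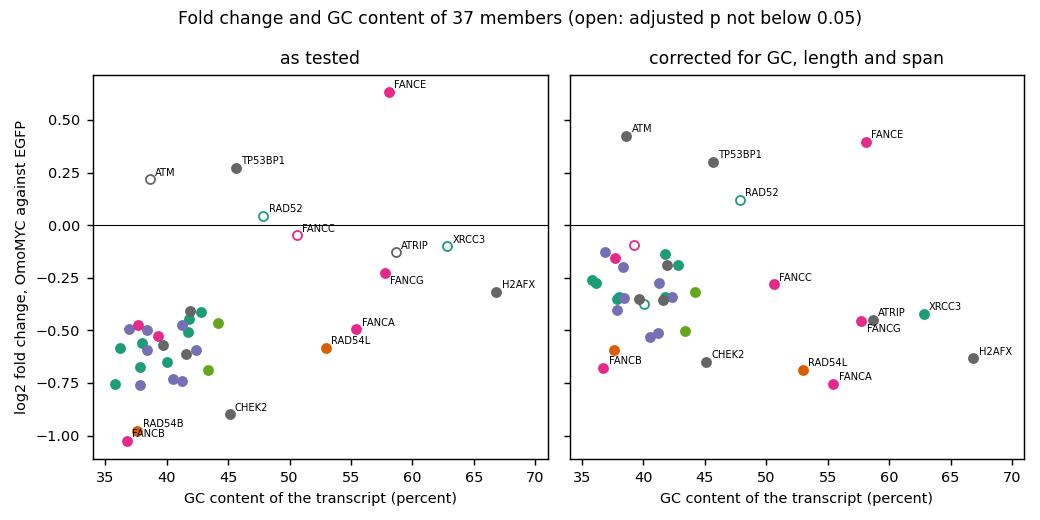
Log2 fold change of OmoMYC against EGFP (y axis) and GC content of the transcript in percent (x axis) for 37 members, as tested on the left and after removal of trends on GC content, transcript length and gene span on the right. Colours give the roles as in the plot of fold changes and open points have an adjusted p not below 0.05. The Spearman correlation is 0.59 on the left and -0.18 on the right, and most points lie below 0 in each panel.

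Libraries of one group also differed together across the members. EGFP replicate 1 had the highest level of its group in 25 of 37 members and EGFP replicate 3 the lowest in 27, and OmoMYC replicate 3 was lowest of its group in 23. The median log2 difference of the members from the EGFP mean was 0.11, -0.00 and -0.10 in the EGFP libraries and -0.50, -0.48 and -0.57 in the OmoMYC libraries. This spread within groups was smaller than the gap between them. Without EGFP replicate 1, 31 members were called lower and 3 higher, against 27.8% and 26.4% of all genes, with XRCC3 at -0.21 (adjusted p = 0.0338) and ATM as the additions.

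**Figure D5:**
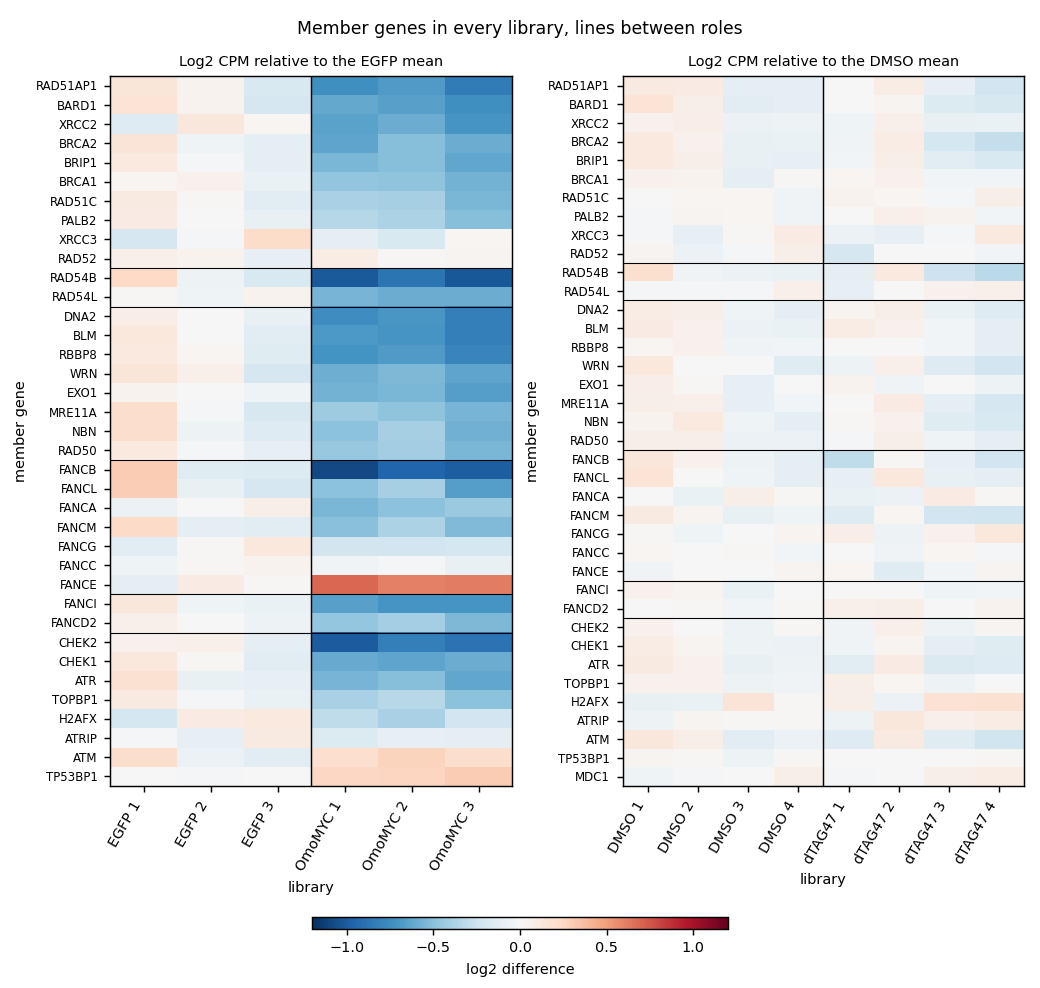
Heat maps of log2 CPM of each member (rows, grouped by role with lines between) in each library (columns) relative to the mean of the control group, EGFP on the left and DMSO on the right. Blue is lower and red is higher than the control mean. Most rows are blue in all 3 OmoMYC columns, FANCE, ATM and TP53BP1 are red there, and no treatment boundary is visible on the right.

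Other genes of the same and neighbouring pathways were counted from lists, against 25.7% of all genes called lower and 27.3% higher. Of 53 further genes of recombination, the Fanconi pathway and ATR signalling that could be tested, 25 fell and 2 rose, with a median log2 fold change of -0.26. The largest changes were the falls of MND1, a meiotic recombination factor (0.95 ± 0.12, adjusted p = 0.000149), RPA3, a subunit of the single-strand binding complex (0.92 ± 0.16, adjusted p = 0.000839), and RMI2, a partner of BLM (0.86 ± 0.09, adjusted p = 2.64e-05). Of 29 DNA replication genes tested, 24 fell and none rose (median -0.34), led by the primase subunits PRIM1 (-0.84) and PRIM2 (-0.81) and the clamp PCNA (-0.71). These S-phase genes moved with the members, and their part in the members' change was not tested. In mismatch repair 6 of 7 genes fell (median -0.46), among them PMS1 (-0.63) and MSH6 (-0.52).

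Of the remaining repair routes, base excision repair had a share called lower (23.8%) near the 25.7% of all genes. Only 3 of its 21 genes were called higher, against 27.3% of all genes. The shares called lower were larger in end joining (41.7% of 12 genes) and nucleotide excision repair (42.1% of 19 genes). In non-homologous end joining, which rejoins ends without a template, 5 of 12 genes fell and 1 rose (median -0.30), with the largest falls in XRCC4 (-0.72), PRKDC (-0.49) and DCLRE1C (-0.43). In base excision repair 5 of 21 fell and 3 rose (median -0.07): the glycosylases NEIL3 (-0.68) and MBD4 (-0.59) fell and NEIL1 (0.66) rose. In nucleotide excision repair 8 of 19 fell and 3 rose (median -0.20), with ERCC6 (0.65) higher and ERCC8 (-0.57) and MNAT1 (-0.49) lower. These counts describe the lists and no list was tested against another.

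In parental cells the test without a factor for replicates called no member changed with dTAG47. Of 38 members tested among 14470 genes, 0 were called lower and 0 higher, against 0.0415% and 0.117% of all genes, and DESeq2 and limma-voom called none either. Log2 fold changes ran from -0.15 to 0.09 with a median of -0.03 and lay within 0.1 of 0 in 33 of 38 members, and their 95% intervals reached from -0.33 to 0.22. None of the members had groups that did not overlap, as 1.47% of all genes had in the lower and 1.87% in the higher direction. An unadjusted p below 0.05 was found for 1 member, FANCM, and for 7.28% of all genes (1053). With a factor for replicates 1 and 2 against 3 and 4, 2 members (FANCM and BRCA2) and 2.9% of all genes were called lower.

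FANCM was at 52.0, 49.3, 45.3 and 46.3 CPM with DMSO and 43.3, 49.0, 41.1 and 40.8 with dTAG47. The second dTAG47 library lay within the DMSO range and the others below it, at a log2 fold change of -0.15 ± 0.06 (edgeR adjusted p = 0.673). FANCB was at 21.8, 20.6, 18.98 and 18.3 CPM with DMSO and 16.1, 19.99, 18.6 and 16.9 with dTAG47, with overlap (-0.15 ± 0.07, adjusted p = 0.673). RAD54B was at 15.9, 13.6, 13.3 and 13.2 CPM with DMSO and 12.9, 15.1, 11.7 and 11.1 with dTAG47. Its groups overlapped as well (-0.14 ± 0.09, adjusted p = 0.705). BRCA1, at 286, 283, 256 and 278 CPM with DMSO and 280.2, 287, 269 and 269 with dTAG47, differed by 0.00 on the log2 scale (95% interval -0.09 to 0.09). MDC1, which is measured in this table, was at 138 ± 4.88 CPM with DMSO and 141 ± 5.26 with dTAG47 (SD, n = 4 each, log2 fold change 0.03 ± 0.04, adjusted p = 0.817).

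In these cells the ratio of ATM to ATR counts was 2.70 ± 0.07 with DMSO and 2.67 ± 0.09 with dTAG47 (exact permutation p = 0.543), and TP53BP1 to BRCA1 was 0.833 ± 0.018 and 0.834 ± 0.030 (exact permutation p = 1, SD, n = 4 each). FANCE to FANCA was 0.289 ± 0.012 and 0.285 ± 0.020 (exact permutation p = 0.714). Replicates 1 and 2 of the parental cells differed from replicates 3 and 4. With a factor for that split, 2 members and 2.9% of all genes were called lower. The members were FANCM (-0.15 ± 0.04, adjusted p = 0.0259) and BRCA2 (-0.11 ± 0.03, adjusted p = 0.0475), and the same genes were called in replicates 3 and 4 alone (-0.17 and -0.16), where 3.24% of all genes were lower. In replicates 1 and 2 alone no member and 0.0207% of all genes were called lower. With GC content, length and span corrected, 0 members and 0.39% of all genes were called lower. Log2 fold change and GC content had a Spearman correlation of 0.79 across the 38 members and 0.47 across 14116 genes with a known transcript. With the correction the correlation in the members was -0.001. These are descriptions of genes measured in shared libraries, and the part of GC content in these calls was not tested.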

How the data were processed

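RNA-seq counts per gene were used from 14 libraries of CHP-134 cells. Per the labels and the study's methods, the authors extracted total RNA, had ribosomal RNA depleted, trimmed adapters with Cutadapt, aligned reads to hg19 with STAR and counted them with featureCounts, without normalization. The deposited values are whole-number counts. The annotation, the strand setting and tool versions are not given in the sources used here. All columns of the tables map to a library, and libraries are described as biological replicates.

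From the counts, each table was fitted by itself in R 4.3.3 with edgeR 4.0.16: filterByExpr, TMM factors, robust quasi-likelihood test, Benjamini-Hochberg over all tested genes, threshold 0.05. CPM use TMM-scaled library sizes, log2 CPM in checks and corrections a prior count of 2, and SE and 95% intervals come from the same fit. The fit was tested on simulated data. The study's tool, DESeq2 (1.42.0), limma-voom (3.58.1), other scaling and filters, a test against 1.5-fold, a replicate factor, leaving out each library and a correction by splines of 4 degrees of freedom on GC content, transcript length and gene span were alternatives. Single values such as count shares and ratios were compared by two-sided exact permutation tests over libraries. Positions, lengths and overlaps are from GENCODE on GRCh37 and promoter windows from RefSeq. Symbols under several identifiers (247 in the OmoMYC table, 41 in the parental table) were left out of the lists, and MDC1 was followed by its main identifier.

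The 38 members, the lists and the tests were chosen with earlier results of these data known. Values by library are given for the 10 called members with the largest fold changes, those called higher, BRCA1, BRCA2, FANCD2, ATM, ATR and CHEK1, and in dTAG47 for the 3 lowest unadjusted p-values. Of each list the 3 called genes with the largest changes are named. One gene that this rule names is not reported here. BRCA1 and MDC1 in parental cells and the ratios were added after their values were seen. The PDPK1 depletion samples of the study were not used here.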

Additional observations from a re-analysis of the deposited data

Results flagged for a closer look

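In the parental experiment, where groups have 4 libraries, the highest or lowest library of each member was compared with the others by Dixon's ratio of gap to range (limit 0.829). The share of counts held by 37 members was examined in the same way. Of these 78 groups, 5 passed it, and chance alone flags about 1 in 20. RAD54L stood at 49.1 CPM in DMSO replicate 4 against 46.5 to 46.7 in the others. RAD54B was at 15.9 CPM in DMSO replicate 1 against 13.2 to 13.6. FANCD2 was at 145 CPM in DMSO replicate 3, below 149.8 to 150.4 in the others. In dTAG47 replicate 2, FANCL was at 36.1 CPM against 30.7 to 31.2 and ATR at 76.1 against 63.0 to 64.7. Apart from RAD54B, none of these genes was among the 3 members with the lowest p in dTAG47.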

How the results depend on the processing

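For OmoMYC, 29 to 31 members were called lower and 2 to 3 higher under every alternative except the test against 1.5-fold (3 lower, 0 higher), and leaving out 1 library gave 29 to 31 lower and 2 to 3 higher, while all genes called ranged from 2842 to 4184 lower and 2698 to 4065 higher. The median log2 fold change of -0.51 became -0.34 with gene features corrected, with or without the replicate block (a combination added after the data were seen). For dTAG47, the members called lower numbered 0 in the reported fit, 1 with the replicate block (FANCM), 2 with the factor for replicates 1 and 2 against 3 and 4 and 2 in replicates 3 and 4 alone, and 0 under the others. Over all genes these fits called 6, 362, 420 and 470 lower, and 17, 306, 374 and 426 higher, and the others 0 to 87 lower and 0 to 160 higher. The cause was not tested. With the replicate block, OmoMYC calls were 30 lower and 3 higher, ATM being the addition (0.23 ± 0.08, adjusted p = 0.0137), against 3867 lower and 4233 higher of all genes. Same-numbered libraries deviated together with correlations of 0.08, -0.07 and 0.29 (OmoMYC experiment) and 0.01, 0.11, 0.10 and 0.16 (parental), so the numbers were not taken as pairs. Under some alternative the sign turned for 22 of 38 members in dTAG47 and 1 of 37 (RAD52) in OmoMYC, none of them called where it turned, and without 1 library for 13 and 1. The median of the members in dTAG47 went from -0.03 to 0.01 with gene features corrected. Values follow for members described by name. In dTAG47, BRCA1 was at -0.000449 with DESeq2, -0.000822 with RLE factors, -0.00878 with library size only and -0.000103 with no filter, and -0.0319 to 0.0184 without 1 library. TP53BP1 was at -0.000478, -0.000802, -0.00882 and -0.000234 under the same 4 settings, -0.0174 in replicates 1 and 2 alone and -0.0182 to 0.0135 without 1 library. CHEK2 was at 0.0106 with gene features corrected, 0.0108 with the block too, 0.00155 in replicates 3 and 4 alone and -0.0261 to 0.0159 without 1 library. FANCE ranged from -0.0501 to 0.00557 without 1 library and, in OmoMYC, RAD52 from -0.0369 to 0.0552.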
